A study of Homo sapiens with 24 samples.

Results

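The combination of a PRMT5 inhibitor with an LSD1 inhibitor was examined for gene responses that departed from the sum of the single-agent responses. The 12 libraries used came from 4 groups of 3 libraries (A, B and C), out of 24 libraries in 8 groups. The other 4 groups, of 3 libraries each, received MS023, MS023 with GSK-LSD1, MC4455 or MC4491; they share the estimate of the spread and enter 3 comparisons at the end. All were MV4-11 cells, an established human acute myeloid leukaemia line that carries the MLL-AF4 fusion and an internal duplication of FLT3, labelled as wild type for PRMT5. The groups received DMSO, PRT220 at 3 nM, GSK-LSD1 at 10 nM, or both compounds at these doses, for 3 days. The series asks whether changes in expression accompany a joint effect of both drugs on these cells. For each gene, the interaction was the log2 level with both agents minus that with PRT220, minus that with GSK-LSD1, plus that with DMSO. A value of 0 means that the combination changed the gene by the product of both single-agent folds, and all 16640 genes that passed a filter on low counts, of 38048 in the table, have one.

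PRMT5 is the main enzyme that places symmetric dimethyl marks on arginine, on histones and on the Sm proteins of the spliceosome, and its inhibition disturbs splicing and activates p53. LSD1, the product of KDM1A, removes methyl groups from lysine on histone H3 within the CoREST complex. In myeloid cells it is held at enhancers by the repressors GFI1 and GFI1B, and LSD1 inhibitors release these enhancers and raise genes of monocyte and macrophage differentiation.

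Calls rest on edgeR's quasi-likelihood test, which was adjusted by the Benjamini-Hochberg method over all genes tested and read at a threshold of 0.05. Every adjusted p given here is of that test, except in ranges over alternative analyses. Those ranges also take in refits with other settings and DESeq2's Wald test. A called interaction gene was sub-additive where its interaction ran against the direction of the called single agents, and super-additive where it ran with them. It was opposed where the agents were called in opposite directions, and combination-emergent where neither agent was called but the combination was. Levels are CPM, estimated counts per 1000000 after TMM scaling between libraries, and ± is the SD with n = 3. Whether libraries A, B and C were grown as separate cultures is not in the labels, and p-values therefore cover only the spread among these libraries, which may be technical.

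The 12 libraries held 34.6 to 61.1 M estimated counts (M for 1000000). Among the monocyte and macrophage markers, 24 of 25 passed the filter, and their summed level was 1711 to 1738 CPM in the DMSO libraries. Markers of T, NK and B lymphocytes summed to 35.9 to 44.2 CPM over the 12 libraries, and those of epithelial cells and fibroblasts to 15.7 to 29.6 CPM. In 5 of the 12 libraries RRP9, which encodes a protein of the U3 small nucleolar particle, stood at 1.10 to 1.73 CPM before scaling, against 31.7 to 36.2 in the other 7. These 5 were DMSO C, all 3 PRT220 libraries and the combination's library C, so the feature is uneven between groups. A contrast between libraries with and without it called 696 of all 16640 genes, and 0 of the 90 interaction genes were among them. A gene that differs with it inside a group has more spread there and is less likely to be called for interaction. That 0 therefore does not show that the 90 are free of the feature. With a term for it in the fit, 78 of the 90 interaction genes were called again and 0 changed sign. All 3 PRT220 libraries had the feature. Both fits therefore take its size from groups that held libraries of both kinds, and cannot test it within PRT220.

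Departures from the sum were few, and most ran below it. The interaction was called in 90 genes (0.541% of those tested), 73 below 0 (0.439%) and 17 above 0 (0.102%). At an unadjusted p below 0.05 there were 1673 genes, or 10.1%. The single agents changed far more genes: PRT220 4139 (24.9%), GSK-LSD1 5419 (32.6%) and the combination 7735 (46.5%). The median interaction over all genes was -0.016, with quartiles of -0.11 and 0.12. Its median standard error among the 11329 genes at 5 CPM or more in the highest group was 0.0899, against 0.0634 for PRT220 against DMSO, because an interaction carries the error of 4 groups. The count moved with single libraries: it was 27 without PRT220 library C and 98 without PRT220 library A, and leaving out any 1 of DMSO B, PRT220 B, the 3 GSK-LSD1 or the 3 combination libraries gave 39 to 53. All 90 genes kept their sign in each of these. The called sizes ran from 0.21 to 3.92 on the log2 scale, and 9 genes had a size of at least 1.

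Of the 90 genes, 78 were sub-additive, 2 super-additive, 9 opposed and 1 combination-emergent. Among the sub-additive genes, 64 were raised by the single agents and 14 were lowered. PRT220 was called in all 78, GSK-LSD1 in 60 of them, and no sub-additive gene was called under GSK-LSD1 alone. The interaction subtracts the PRT220 and GSK-LSD1 libraries and adds the DMSO libraries that also enter the single-agent changes, so an error in one of these groups moves both in opposite senses. The class counts are therefore descriptions, and no share or correlation between these comparisons is read as a result.

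**Figure D1:**
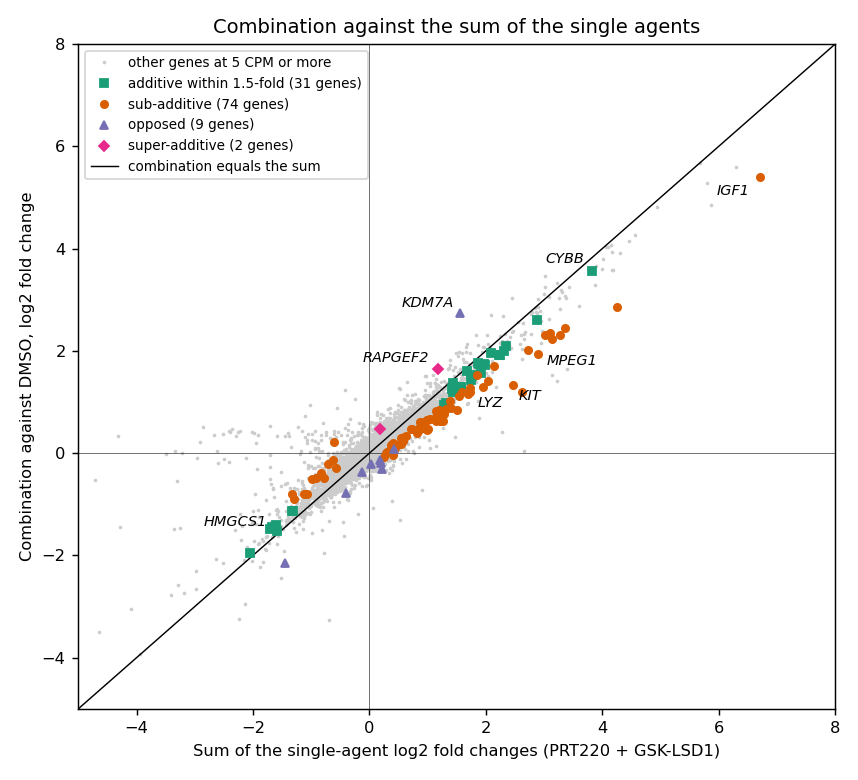
Each point is a gene at 5 CPM or more in the highest group, with the sum of its PRT220 and GSK-LSD1 log2 fold changes on the horizontal axis and the combination's log2 fold change against DMSO on the vertical axis; the line marks equality. Raised sub-additive genes lie under the line and lowered ones above it, RAPGEF2 and KDM7A lie above it, and the 31 genes called additive lie near it.

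Of the 64 raised sub-additive genes, MPEG1 and LYZ were in the monocyte and macrophage list. Over the 64 genes the median log2 fold change was 0.59 with PRT220, 0.51 with GSK-LSD1 and 0.66 with both. With both agents the level was 26.6% to 86.5% of that expected from the product of the folds, with a median of 75.2%. All but 2 of them reached 5 CPM. The largest interactions by the naming rule, among genes at 5 CPM or more, were those of ADGRL2, IGF1, KIT, MPEG1, SLC4A3, CD84 and ABCA6.

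IGF1 (ENSG00000017427, chromosome 12, 102395874 to 102481744), which encodes insulin-like growth factor 1, was raised by each agent and most by both. It stood at 4.39, 5.87 and 5.01 CPM in DMSO libraries A, B and C, 17.6, 21.4 and 25.7 with PRT220, 126, 128 and 132 with GSK-LSD1 and 195, 234 and 223 with both. The 4 groups did not overlap, and the combination was the highest. The log2 fold changes were 2.07 with PRT220, 4.65 with GSK-LSD1 and 5.40 with both, against a sum of 6.71. The interaction was -1.31 (SE 0.206, edgeR's adjusted p = 0.00309), so the combination, at 217 ± 19.8 CPM (n = 3), reached 40.3% of the expected 545 CPM. On the linear scale the sign was the opposite: the combination exceeded the sum of the increments in CPM by 72.2 (SE 11.8).

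KIT (ENSG00000157404, chromosome 4, 54657918 to 54740715), the stem cell factor receptor of progenitors and mast cells, was raised mainly by PRT220, and the combination fell short of that rise. Its values were 5.73, 6.87 and 7.40 CPM in DMSO libraries A, B and C, 27.1, 29.8 and 30.8 with PRT220, 7.94, 8.94 and 8.38 with GSK-LSD1 and 15.8, 18.9 and 15.8 with both. PRT220 libraries were the highest, the combination lay between them and both other groups, and the groups did not overlap. The mean was 29.2 ± 1.93 CPM with PRT220 and 16.8 ± 1.79 with both (n = 3), a log2 difference of -0.80 (adjusted p = 1.53e-06 by edgeR). GSK-LSD1 alone raised KIT by 0.33 on the log2 scale (adjusted p = 0.015 by edgeR), so adding it to PRT220 changed KIT in the other direction. The interaction was -1.13 (95% interval -1.42 to -0.84; edgeR's adjusted p = 0.000672).

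MPEG1 (ENSG00000197629, chromosome 11, 59208510 to 59212951), which encodes the pore-forming perforin-2 of macrophages, stopped near its GSK-LSD1 level. The libraries held 41.5, 47.3 and 43.7 CPM in DMSO libraries A, B and C, 86.4, 98.3 and 99.4 with PRT220, 151, 151 and 160.5 with GSK-LSD1 and 157, 174 and 175 with both. DMSO, PRT220 and GSK-LSD1 were in rising order without overlap, whereas the combination overlapped GSK-LSD1. The sum of the log2 fold changes was 2.90, the combination gave 1.93, and the interaction was -0.97 (SE 0.123, adjusted p = 0.000672 by edgeR). LYZ (ENSG00000090382, chromosome 12, 69348341 to 69354234), the lysozyme gene, was the other called member of the monocyte and macrophage list. It stood at 954, 901 and 894 CPM in DMSO libraries A, B and C, 1043, 1125 and 1136 with PRT220, 2403, 2557 and 2471 with GSK-LSD1 and 1951, 2035 and 2097 with both. The combination lay below every GSK-LSD1 library and above every PRT220 library. PRT220 raised LYZ by 0.27 alone, but on top of GSK-LSD1 it gave -0.29 (adjusted p = 0.00274 by edgeR), and the interaction was -0.55 (edgeR's adjusted p = 0.00309).

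CD84 (ENSG00000066294, chromosome 1, 160541095 to 160579516), a SLAM family receptor of leukocytes, rose in steps. Its libraries had 16.9, 16.1 and 14.0 CPM in DMSO libraries A, B and C, 35.1, 43.3 and 42.4 with PRT220, 56.2, 54.5 and 50.1 with GSK-LSD1 and 75, 69.2 and 75.3 with both. The groups did not overlap, and the combination was the highest. Its level of 73.2 ± 3.47 CPM (n = 3) was 53.1% of the 138 CPM expected, with an interaction of -0.91 (edgeR's adjusted p = 0.000672). In CPM, however, the departure from the sum was -5.0 (SE 3.85), close to its error. ABCA6 (ENSG00000154262, chromosome 17, 69078702 to 69141888), a lipid transporter of the ABC family, went from 5.16 ± 0.306 CPM to 11.5 ± 1.61 with PRT220, 23.6 ± 1.15 with GSK-LSD1 and 28.1 ± 1.81 with both (n = 3), and its interaction was -0.91 (edgeR's adjusted p = 0.00239). As in MPEG1, the combination was not told apart from GSK-LSD1 (log2 difference 0.25, adjusted p = 0.0788 by edgeR).

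A pair of the named genes were low in every group. SLC4A3 (ENSG00000114923, chromosome 2, 219627327 to 219641980), an anion exchanger, had 1.62 ± 0.269 CPM with DMSO, 5.49 ± 0.429 with PRT220, 4.67 ± 0.303 with GSK-LSD1 and 8.06 ± 0.957 with both (n = 3), and an interaction of -0.97 (edgeR's adjusted p = 0.00591). ADGRL2 (ENSG00000117114, chromosome 1, 81306160 to 81992436), an adhesion G protein-coupled receptor, stood at 0.861 ± 0.200, 4.18 ± 1.19, 3.32 ± 0.461 and 6.19 ± 0.180 CPM in the same order (n = 3). Its interaction of -1.39 (SE 0.281, edgeR's adjusted p = 0.0248) was the largest in size, and its interval of -1.98 to -0.80 the widest, of the called genes that the naming rule gave. It was called in 8 of 20 alternative analyses, with an adjusted p of 0.00136 to 0.122 over them. Both genes rose further with the combination than with either agent.

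**Figure D2:**
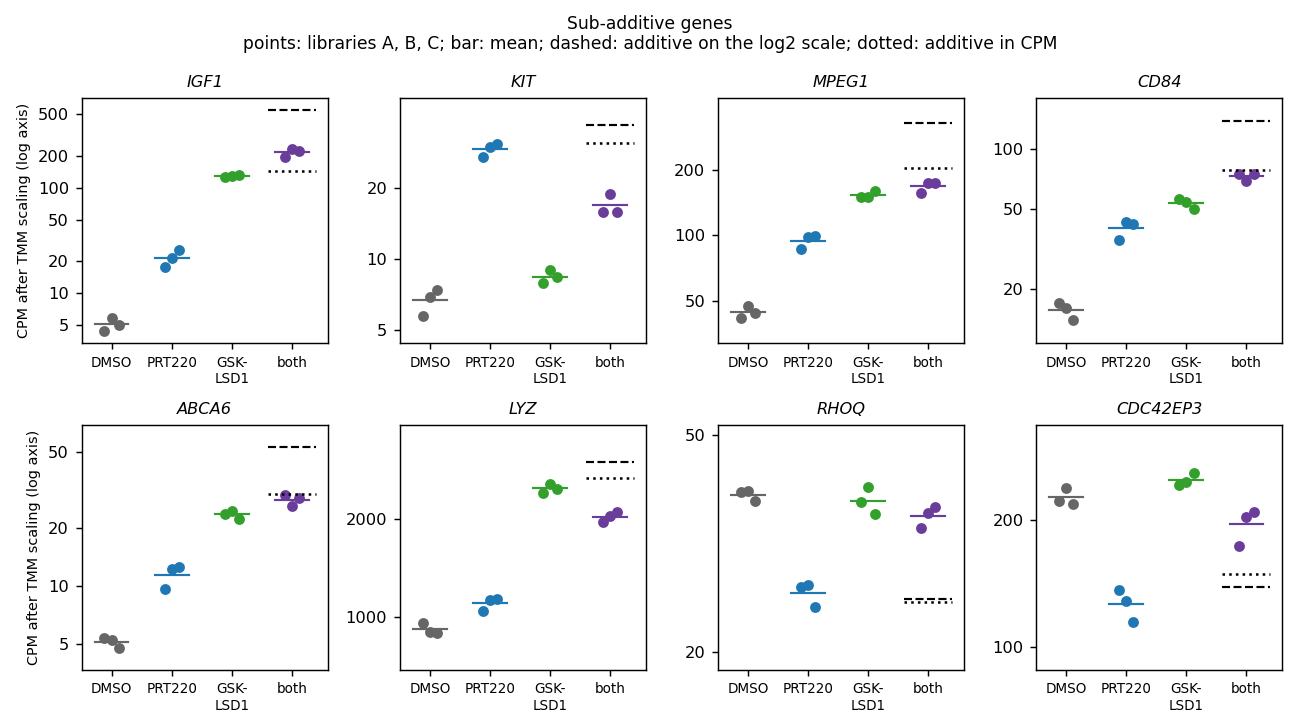
CPM on log axes for 8 sub-additive genes in each of the 12 libraries (points) with group means (bars); the dashed line is the level expected from the product of the single-agent folds and the dotted line that from the sum of the increments in CPM. In IGF1 the combination, at 195 to 234 CPM, lies between both lines, and in KIT, LYZ, RHOQ and CDC42EP3 it lies away from both.

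Where the combination ended relative to the stronger single agent divided the 78 sub-additive genes. It passed that agent in 17, was not told apart from it in 36 and fell short of it in 25, by edgeR's test of the combination against each agent, which called 38.2% of all genes against PRT220 (19.4% higher and 18.8% lower) and 15.3% against GSK-LSD1 (7.01% higher and 8.34% lower). The stronger agent was PRT220 in 45 genes and GSK-LSD1 in 33. Among genes that both agents had raised, the combination passed the stronger agent in 16, was not told apart from it in 30 and fell short in 6. All 18 genes that only PRT220 had changed fell short: with GSK-LSD1 added, they lay nearer to DMSO or past it. The class rule largely sets this, so it is a description. GSK-LSD1 alone was not called in these genes, with medians of 0.018 in the 12 raised and 0.068 in the 6 lowered. Their interaction is therefore close to the combination minus PRT220.

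Of those 18, 12 had been raised by PRT220, with medians of 0.51 under PRT220, 0.018 under GSK-LSD1 and 0.13 under both. In 6 of the 12 the combination was no longer called against DMSO. The following examples were chosen after their values were seen. IL13RA1 (ENSG00000131724, chromosome X, 118727572 to 118794539), a receptor chain for interleukin 13, had 50.0 ± 1.99 CPM with PRT220 but 36.0 ± 0.648 with both, next to 36.8 ± 2.7 with DMSO and 35.8 ± 0.680 with GSK-LSD1 (n = 3). Its interaction was -0.43 (edgeR's adjusted p = 0.00309). IRF5 (ENSG00000128604, chromosome 7, 128937612 to 128950035), an interferon regulatory factor of macrophages, went from 66.5 ± 0.872 CPM to 99.4 ± 1.000 with PRT220 and 75.7 ± 3.65 with both (n = 3; interaction -0.36, edgeR's adjusted p = 0.00491). TGFBI (ENSG00000120708, chromosome 5, 136028895 to 136063818), a secreted matrix protein, went from 35.2 ± 2.63 to 64.1 ± 2.17 CPM with PRT220 and stopped at 49.9 ± 0.400 with both, and its interaction was -0.41 (n = 3, edgeR's adjusted p = 0.00876). CST3, which encodes the protease inhibitor cystatin C, was at 166 ± 11.1 CPM with DMSO, 273 ± 12.9 with PRT220 and 218 ± 11.6 with both (n = 3).

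Of the 52 sub-additive genes raised by both agents, 4 more are described, chosen after their values were seen. SAMHD1 (ENSG00000101347, chromosome 20, 36889773 to 36951901), the deoxynucleotide triphosphate hydrolase of myeloid cells, had the lowest adjusted p of all genes. It held 275, 287 and 278 CPM in DMSO libraries A, B and C, 492, 525 and 558 with PRT220, 559.8, 589 and 584 with GSK-LSD1 and 669, 692 and 683 with both. The groups did not overlap, and the combination was the highest. Its interaction was -0.67 (SE 0.0760, edgeR's adjusted p = 0.000458), with 681 ± 11.5 CPM against an expected 1083. TLR1, a Toll-like receptor, had 13.0, 23.4, 29.8 and 34.5 CPM as means with DMSO, PRT220, GSK-LSD1 and both, and MYD88, the adaptor of these receptors, 36.8, 47.6, 64.7 and 66.4. CXCR4, the receptor that retains progenitors in marrow, ended at 136 ± 5.24 CPM, near 122 ± 11.0 with PRT220 and 126 ± 0.892 with GSK-LSD1 and above 79.6 ± 3.97 with DMSO (n = 3). The interactions were -0.63, -0.34 and -0.51 for TLR1, MYD88 and CXCR4, with edgeR's adjusted p of 0.0022, 0.0426 and 0.00904. SOX4 (ENSG00000124766, chromosome 6, 21592768 to 21598619), a transcription factor of progenitors, had 272 ± 5.97, 349 ± 4.5, 467 ± 10.3 and 484 ± 9.27 CPM in the same order (n = 3; interaction -0.31, edgeR's adjusted p = 0.0379), and its call was kept in 3 of 20 alternative analyses.

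Promoters of the raised sub-additive genes were searched for motifs of factors that act in this lineage, in windows from 250 bases before to 50 bases after the start in RefSeq on GRCh38.p14. The PU.1-type motif GAGGAAGT, on either strand, was held by 5 of 53 genes with a window (9.43%), against 421 of 11283 tested genes (3.73%). The GFI1-type AAATCAC was in 1 of 53 (1.89%; all genes 3.18%), the SREBP-type TCACNCCAC in 1 (1.89%; all genes 1.49%) and the C/EBP-type TTGCGCAA in 0 (all genes 0.301%). The lowered sub-additive genes held the PU.1-type and the SREBP-type motif in 1 of 11 each (9.09%), and the additive and opposed genes held none of the 4. A match describes the letters only. The windows of JAML (chr11:118212897-118213196, minus strand), GSN (chr9:121285855-121286154, plus strand) and PLXNC1 (chr12:94262369-94262668, plus strand) are shown because they are raised sub-additive genes whose window holds the motif, given in capitals; they were chosen after their values were seen.
JAML: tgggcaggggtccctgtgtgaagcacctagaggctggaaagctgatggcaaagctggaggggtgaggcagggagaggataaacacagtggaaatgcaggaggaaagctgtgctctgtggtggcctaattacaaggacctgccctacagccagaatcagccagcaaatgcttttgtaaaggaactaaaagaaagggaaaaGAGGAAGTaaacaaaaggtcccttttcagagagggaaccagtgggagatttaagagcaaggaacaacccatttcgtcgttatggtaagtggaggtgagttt
GSN: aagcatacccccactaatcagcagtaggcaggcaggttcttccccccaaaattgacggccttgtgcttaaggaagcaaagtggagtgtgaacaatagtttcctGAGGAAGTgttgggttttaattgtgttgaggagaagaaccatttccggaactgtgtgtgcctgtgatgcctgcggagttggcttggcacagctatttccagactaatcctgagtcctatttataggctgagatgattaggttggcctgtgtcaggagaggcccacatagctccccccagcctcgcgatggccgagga
PLXNC1: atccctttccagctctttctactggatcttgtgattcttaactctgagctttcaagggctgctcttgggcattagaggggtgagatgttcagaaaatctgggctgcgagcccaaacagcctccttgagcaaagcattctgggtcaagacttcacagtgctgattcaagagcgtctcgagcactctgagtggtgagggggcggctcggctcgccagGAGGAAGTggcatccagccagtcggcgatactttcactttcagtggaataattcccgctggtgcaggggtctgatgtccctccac
The motif began 51 bases before the start in JAML, 147 before it in GSN and 35 before it in PLXNC1. JAML, an adhesion molecule of migrating leukocytes, had 7.61 ± 1.07, 27.6 ± 3.12, 18.2 ± 0.927 and 38.8 ± 0.679 CPM with DMSO, PRT220, GSK-LSD1 and both (n = 3), and an interaction of -0.76 (edgeR's adjusted p = 0.0242). GSN, the actin-severing gelsolin, had 230.1 ± 17.2, 341 ± 3.52, 282 ± 9.23 and 320.1 ± 7.12 CPM in that order (n = 3; -0.38, edgeR's adjusted p = 0.00872). PLXNC1, a semaphorin receptor, had 61.8 ± 2.35, 94.6 ± 2.49, 80.5 ± 0.888 and 96.2 ± 1.77 CPM (n = 3; -0.36, edgeR's adjusted p = 0.00592). Their combination passed PRT220 in JAML and was not told apart from PRT220 in GSN and PLXNC1.

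Lowered sub-additive genes numbered 14, and in 12 at 5 CPM or more the combination left 120% to 175% of the expected level. PRT220 had lowered all 14 and GSK-LSD1 8 of them. In the other 6, which PRT220 alone had lowered, the level was higher with both agents than with PRT220, which the class rule again largely sets. RHOQ (ENSG00000119729, chromosome 2, 46541806 to 46583121), a small GTPase, stood at 39.3, 39.5 and 37.8 CPM in DMSO libraries A, B and C, 26.4, 26.6 and 24.2 with PRT220, 37.7, 40.1 and 35.9 with GSK-LSD1 and 33.7, 36.0 and 36.9 with both. The PRT220 libraries lay below all others, and the combination lay just under the DMSO libraries. PRT220 alone gave -0.60 and the combination -0.13 against DMSO, with an interaction of 0.50 (SE 0.0748, edgeR's adjusted p = 0.0022).

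CDC42EP3 (ENSG00000163171, chromosome 2, 37641882 to 37738468), an effector of the GTPase CDC42, fell from 227 ± 10.7 to 126 ± 11.0 CPM with PRT220, was at 249 ± 8.41 with GSK-LSD1 and at 195 ± 19.4 with both (n = 3). Its interaction was 0.49 (edgeR's adjusted p = 0.011). HEG1 (ENSG00000173706, chromosome 3, 124965710 to 125055958), a mucin-like receptor, was at 27.3 ± 1.69, 15.5 ± 0.973, 27.1 ± 0.874 and 20.9 ± 1.01 CPM in the same order (n = 3; 0.44, edgeR's adjusted p = 0.0331). For PHLDA1 (ENSG00000139289, chromosome 12, 76025447 to 76033932), a feedback gene of MAPK signalling, the values were 22.2, 30.1 and 31.8 CPM in DMSO libraries A, B and C, 17.7, 16.9 and 16.8 with PRT220, 29.1, 29.1 and 32.7 with GSK-LSD1 and 28.5, 34.6 and 34.2 with both. Only the PRT220 libraries stood apart from the others. The interaction of 0.81 (edgeR's adjusted p = 0.0426) was called in 6 of 20 alternative analyses, with an adjusted p of 0.000515 to 0.198 over them.

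In NAB2 and INO80C the combination was not told apart from PRT220 alone. NAB2 (ENSG00000166886, chromosome 12, 57088894 to 57095476), a corepressor of EGR transcription factors, went from 32.4 ± 2.7 CPM to 19.5 ± 1.94 with PRT220, 21.6 ± 0.599 with GSK-LSD1 and 18.7 ± 0.284 with both (n = 3; 0.53, edgeR's adjusted p = 0.0192). INO80C (ENSG00000153391, chromosome 18, 35452230 to 35497991), a subunit of the INO80 chromatin remodelling complex, stood at 15.6 ± 0.158, 10.5 ± 0.884, 11.7 ± 0.721 and 11.0 ± 0.674 CPM in that order (n = 3; 0.49, edgeR's adjusted p = 0.0211), and its 3 treated groups overlapped. Among the 90 called genes the 2 largest interactions, of TENM4 (3.61) and of a gene without a symbol, rested on means below 1 CPM in every group.

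Super-additive genes were rare: RAPGEF2 and TUT4, both raised by GSK-LSD1 alone. RAPGEF2 (ENSG00000109756, chromosome 4, 159103013 to 159360174), an exchange factor that activates RAP GTPases, was at 17.1, 17.6 and 15.8 CPM in DMSO libraries A, B and C, 15.8, 16.1 and 15.9 with PRT220, 41.8, 40.7 and 38.9 with GSK-LSD1 and 50.5, 53.8 and 53.6 with both. DMSO and PRT220 overlapped, GSK-LSD1 lay above them, and the combination lay above all other libraries. PRT220 gave -0.08 alone (adjusted p = 0.421 by edgeR) and 0.38 on top of GSK-LSD1 (adjusted p = 0.000308 by edgeR). The interaction was 0.46 (95% interval 0.27 to 0.65; edgeR's adjusted p = 0.0233), or 138% of the expected level, and it was called in 15 of 20 alternative analyses. TUT4 (ENSG00000134744, chromosome 1, 52408282 to 52553487), which adds uridine to RNA ends, had 54.8, 56.2 and 54.1 CPM in DMSO libraries A, B and C, 50.5, 53.6 and 54.6 with PRT220, 63.9, 64.4 and 66.1 with GSK-LSD1 and 74.1, 78 and 75.5 with both. DMSO overlapped PRT220 in its range, and the combination was again the highest. Its interaction of 0.28 (edgeR's adjusted p = 0.0426) was not called with the term for the RRP9-low libraries.

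Among genes changed by each agent at least 1.5-fold in 1 direction, 250 in all, none was called super-additive. The interaction ran against the agents in 164 of the 167 raised and 81 of the 83 lowered genes. At an unadjusted p below 0.05 in edgeR's interaction test 0 ran in the agents' direction, and DESeq2 called 0 super-additive. The 167 raised genes had medians of 0.91 with PRT220, 1.33 with GSK-LSD1 and 1.93 with both, against a median sum of 2.33; 20 were called sub-additive. For the 83 lowered genes the medians were -0.87, -1.05 and -1.38, against a sum of -2.05, and 2 were called sub-additive. Since these genes were picked for large single-agent changes in the libraries that the interaction subtracts, these counts and the gap between the medians are descriptions.

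Additivity was shown for few genes at this precision. A gene with both single-agent changes called, at least 1.5-fold and in 1 direction, was counted additive where the interaction was not called and its 95% interval lay within 1.5-fold either way. Of 228 such genes without a called interaction, 31 (13.6%) met this, 24 raised and 7 lowered, and the others were undetermined. A bound of 2-fold gave 101 genes and a narrower one gave 1. Even within the bound, the interval excluded 0 in 17 of the 31. All 24 raised genes had an interaction below 0 and all 7 lowered genes one above 0, so additive here means within 1.5-fold and not equal to the sum. The level reached was 78.4% to 96.8% of the expected in the raised and 104% to 117% in the lowered genes.

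CYBB (ENSG00000165168, chromosome X, 37780011 to 37813461), the catalytic subunit of the phagocyte NADPH oxidase, had the largest additive rise. Its libraries held 3.35, 3.71 and 3.75 CPM in DMSO libraries A, B and C, 9.51, 11.1 and 10.2 with PRT220, 17.9, 17.3 and 19.0 with GSK-LSD1 and 41.5, 45.8 and 40.8 with both. The groups did not overlap, and each agent raised the gene in the presence of the other. The combination gave 3.56 against a sum of 3.83 (interaction -0.27, 95% interval -0.51 to -0.02; edgeR's adjusted p = 0.44). CIITA (ENSG00000179583, chromosome 16, 10866222 to 10943021), the master activator of MHC class II genes, went from 38.4 ± 0.961 CPM to 60.1 ± 6.64, 116 ± 7.63 and 146 ± 0.781 with PRT220, GSK-LSD1 and both (n = 3), with an interaction of -0.32 (-0.54 to -0.09).

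The other named raised genes lay a little under their sums. GPR65, a proton-sensing receptor of leukocytes, rose from 9.77 ± 0.763 to 37.2 ± 1.21 CPM with both (n = 3; sum 2.23, combination 1.93), and RAB27B, a GTPase of secretory vesicles, from 6.28 ± 0.729 to 25.1 ± 0.373 (n = 3; sum 2.31, combination 2.00). RGL1, a RAL exchange factor, reached 2.09 against a sum of 2.34, and CSGALNACT1, an enzyme of chondroitin sulfate synthesis, 2.61 against 2.88.

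Additive lowered genes included enzymes of the mevalonate pathway. HMGCS1 (ENSG00000112972, chromosome 5, 43289395 to 43313512), the synthase that opens this pathway to cholesterol, had 635, 734 and 652 CPM in DMSO libraries A, B and C, 459.9, 419 and 356 with PRT220, 349, 348 and 402 with GSK-LSD1 and 233, 234 and 232 with both. PRT220 and GSK-LSD1 overlapped, both lay below DMSO, and the combination lay below all. The combination gave -1.53 against a sum of -1.59, the closest of the named additive genes (interaction 0.06, 95% interval -0.19 to 0.30; edgeR's adjusted p = 0.92). FDPS (ENSG00000160752, chromosome 1, 155308748 to 155320666), farnesyl diphosphate synthase, fell from 281 ± 16.3 to 182 ± 21.6 CPM with PRT220, 172 ± 5.51 with GSK-LSD1 and 129 ± 0.750 with both (n = 3; interaction 0.21, -0.00 to 0.42). SLCO4C1, an organic anion transporter, gave -1.94 against a sum of -2.05, GFOD1 -1.49 against -1.71, the amino acid transporter SLC38A5 -1.45 against -1.67, and the sphingosine kinase SPHK1 -1.40 against -1.61.

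**Figure D3:**
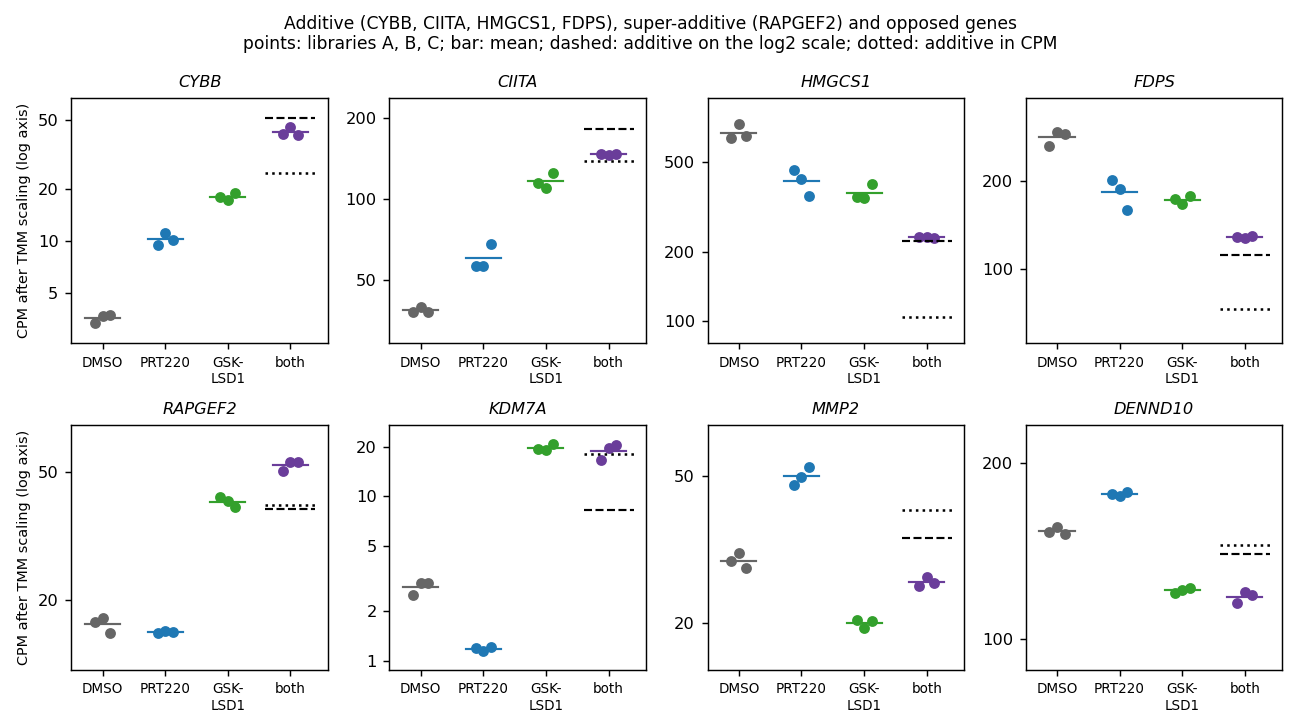
CPM on log axes for 4 additive genes (CYBB, CIITA, HMGCS1, FDPS), the super-additive RAPGEF2 and the opposed KDM7A, MMP2 and DENND10, drawn as points for the 12 libraries with group means, and with dashed (product of folds) and dotted (sum of CPM increments) expected levels. HMGCS1 reached 233 CPM with both agents, next to the dashed line at 224, whereas RAPGEF2 at 52.6 CPM lay above both lines.

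Opposed genes moved one way with PRT220 and the other way with GSK-LSD1, and in 8 of the 9 PRT220 raised and GSK-LSD1 lowered the gene. In 4 of the 9 the combination was not told apart from the agent with the larger change, and in 5 it was called different from that agent. KDM7A (ENSG00000006459, chromosome 7, 140084746 to 140177035), a histone lysine demethylase, was the exception and the only 1 above 0. It stood at 2.51, 2.95 and 2.98 CPM in DMSO libraries A, B and C, 1.19, 1.15 and 1.2 with PRT220, 19.4, 19.0 and 20.9 with GSK-LSD1 and 16.7, 19.7 and 20.6 with both. PRT220 lowered KDM7A below every DMSO library, but the combination overlapped GSK-LSD1. The interaction was 1.2 (SE 0.163, edgeR's adjusted p = 0.00103), while in CPM the departure was 0.829 (SE 1.32), smaller than its error.

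MMP2 (ENSG00000087245, chromosome 16, 55389700 to 55506691), a gelatinase, had 29.3, 30.8 and 28.1 CPM in DMSO libraries A, B and C, 47.0, 49.6 and 52.7 with PRT220, 20.4, 19.4 and 20.2 with GSK-LSD1 and 25.2, 26.7 and 25.6 with both. PRT220 was the highest and GSK-LSD1 the lowest group, without overlap, and the combination lay below DMSO (interaction -0.39, edgeR's adjusted p = 0.0105). DENND10 (ENSG00000119979, chromosome 10, 119104086 to 119137984), a protein of vesicle traffic, stood at 153 ± 2.12 CPM, 177 ± 1.61 with PRT220, 121 ± 1.15 with GSK-LSD1 and 118 ± 2.54 with both (n = 3; -0.24, edgeR's adjusted p = 0.0105). ARHGAP23, a GTPase-activating protein, had 22.7, 32.9, 18.2 and 18.2 CPM as means, TTC7A 241, 305, 216 and 220.2, and the mitochondrial protease PARL 67.5, 102, 59.8 and 71.6. In these 3 the combination lay below PRT220, with interactions of -0.53, -0.31 and -0.33. They were called in 10, 14 and 6 of 20 alternative analyses. IL7R, OTULINL and GRAMD4 were the other opposed genes. SASH1 was the sole combination-emergent gene: it had 152 ± 7.11, 146 ± 3.29 and 153 ± 3.52 CPM with DMSO, PRT220 and GSK-LSD1 and 124 ± 5.26 with both (n = 3; interaction -0.24, edgeR's adjusted p = 0.0477).

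**Figure D4:**
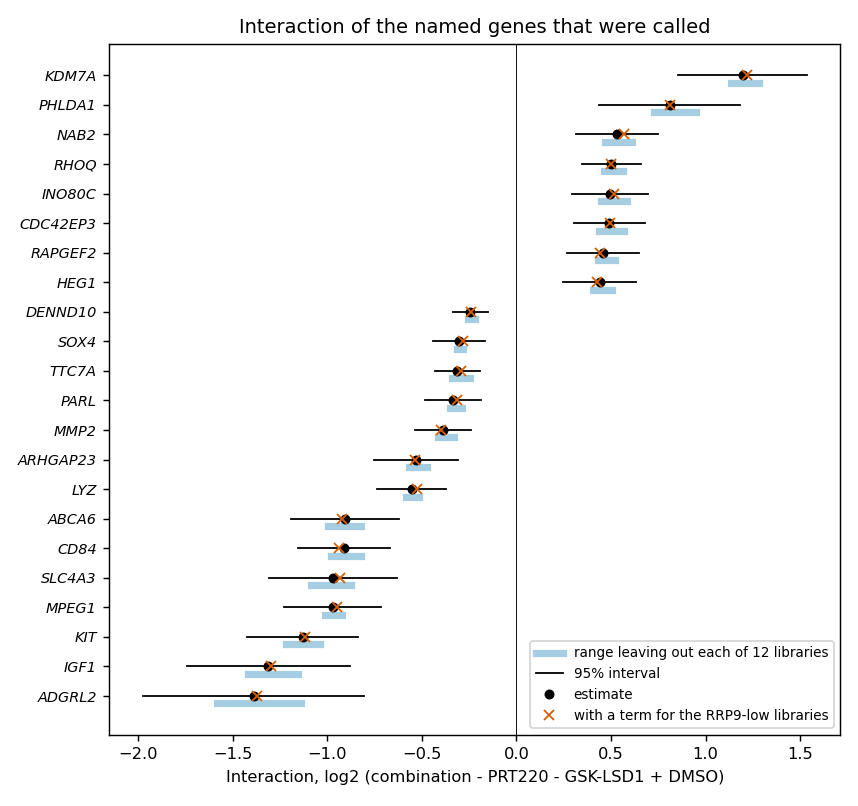
Interaction (log2, horizontal axis) of 22 named genes that were called, with the 95% interval (line), the range on leaving out each of the 12 libraries (band) and the value with a term for the RRP9-low libraries (cross). These genes were picked as called with and without that term, so their intervals had to exclude 0 and the crosses had to keep the sign. No band crosses 0 either, and ADGRL2 has the widest interval plotted, from -1.98 to -0.80.

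The classes depend on the scale. In CPM, 60 of the 64 raised sub-additive genes were also below the sum of the increments, and IGF1, DTX4, JAML and ARHGEF11 were above it. All 14 lowered genes kept their direction. DTX4, an E3 ubiquitin ligase of the Notch pathway, exceeded the sum by 12.1 CPM (SE 10.0), about its error, and JAML and ARHGEF11 by 0.546 (SE 2.02) and 0.197 (SE 0.899), less than their errors. In the additive CYBB the combination exceeded the sum of increments by 18.0 CPM (SE 1.72).

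Lists of genes showed how pathways sat around the sum. Among monocyte and macrophage markers the median log2 fold change was 0.27 with PRT220, 1.2 with GSK-LSD1, 1.11 with both and 1.69 for the sum. The median interaction was only -0.066, so the gap between these medians is not a shortfall shared by the list. Of 24 interactions 2, of MPEG1 and LYZ, were called, and 14 were below 0, next to 9015 of all 16640 genes. The list's summed level was 3390 to 3686 CPM with both agents, against 3921 to 4092 with GSK-LSD1 alone. LYZ made up most of this sum, with means of 2028 CPM with both and 2477 with GSK-LSD1. The sum therefore mainly follows LYZ and does not describe the other members. ITGAM, the integrin CD11b, was undetermined: 3.03 ± 0.804, 7.06 ± 0.441, 26.4 ± 3.02 and 46.2 ± 6.42 CPM (n = 3), with an interaction of -0.39 (-0.86 to 0.08). CD86, a costimulatory ligand, had log2 fold changes of 2.89 with GSK-LSD1 and 3.11 with both (interaction 0.11, -0.46 to 0.69). VCAN, the proteoglycan versican, had fold changes of 5.95 and 5.68 (-0.01, -0.75 to 0.74). In bulk RNA, a different number of cells of a type and a different amount of RNA per cell cannot be told apart.

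For antigen presentation genes the medians were 0.38, 1.38 and 1.53 against a sum of 1.79, and 14 of 18 interactions were below 0, next to 9015 of all 16640 genes. EdgeR called 0 of the 18, with 6 at an unadjusted p below 0.05, all 6 below 0, and DESeq2 called 1. Over all genes 1673 of 16640 (10.1%) were at an unadjusted p below 0.05, with 1057 of these below 0. Of the progenitor list, KIT and SOX4 were called among 12. GATA2, a transcription factor of stem cells, was undetermined: it fell from 55.2 ± 2.54 CPM to 22.2 ± 4.64 with PRT220, 24.1 ± 2.67 with GSK-LSD1 and 12.5 ± 1.72 with both (n = 3), and its interaction was 0.36 (0.01 to 0.71).

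The median of the cholesterol synthesis genes lay near the sum. With PRT220 22 of 24 were called lower, with GSK-LSD1 22 and with both 24, and 0 were called higher in any of these; PRT220 lowered 11.1% of all genes, GSK-LSD1 15.0% and the combination 22.1%. Their median was -0.39, -0.70 and -1.05, against a sum of -1.12. EdgeR called 0 interactions among them, 0 also at an unadjusted p below 0.05, and DESeq2 called 0. The ATF4 and amino acid list was lowered in 23 of 28 by PRT220, 15 by GSK-LSD1 and 23 by both, and the combination's median was -0.56 against a sum of -0.55. Its median interaction was 0.092, with 19 of 28 above 0, next to 7624 of all 16640 genes. The interaction was called in 0 of 28 by edgeR and in 1 by DESeq2. At an unadjusted p below 0.05 in edgeR's test there were 10, of which 8 were above 0, next to 616 of all genes above 0. TRIB3, a pseudokinase induced by ATF4, went from 53.5 ± 14.2 CPM to 18.0 ± 3.93, 15.0 ± 2.07 and 7.80 ± 1.80 (n = 3; interaction 0.63, 0.05 to 1.21).

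In the p53 target list PRT220 raised 15 of 29 genes (13.8% of all genes) and GSK-LSD1 raised 7 (17.6% of all) and lowered 7 (15.0% of all). Its interactions were below 0 in 24 of 29, next to 9015 of all 16640, with a median of -0.17. The S phase list was lowered in 10 of 26 by PRT220 (11.1% of all genes), 17 by GSK-LSD1 (15.0%) and 24 by both (22.1%). Its combination median was -0.42 against a sum of -0.29, and 23 interactions were below 0. In the G2 and M phase list 10, 9 and 23 of 26 were lowered, next to the same shares of all genes. The medians were -0.35 for the combination and -0.23 for the sum, and 25 interactions were below 0. None of the 3 lists had a called gene in edgeR, and DESeq2 called 1, 0 and 0. At an unadjusted p below 0.05 in edgeR's test there were 11 of 29, 8 of 26 and 2 of 26 genes, all below 0. Over all genes the share was 10.1% (1673 of 16640), with 1057 of these below 0. The combination's median thus lay below the sum in both cell cycle lists and short of it in the monocyte list, and these differences of medians were not tested. They are not median interactions, which were -0.13 (S phase), -0.092 (G2 and M phase) and -0.066 (monocyte).

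**Figure D5:**
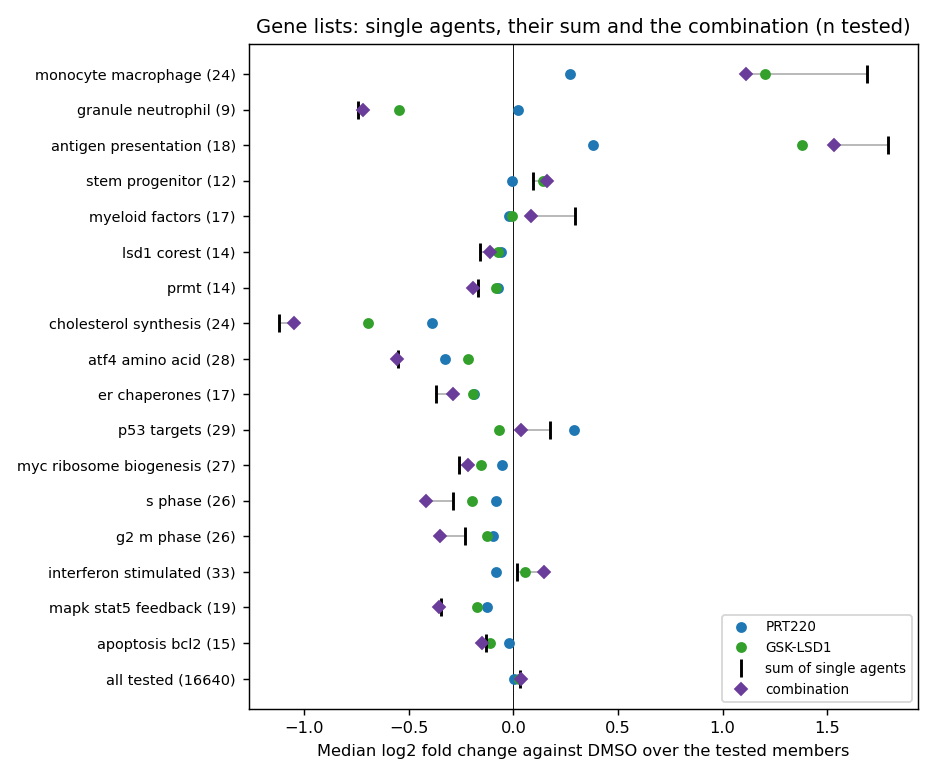
Median log2 fold change against DMSO (horizontal axis) over the tested members of 17 gene lists and of all 16640 genes, for PRT220, GSK-LSD1 and both (points) and for the sum of the single agents (tick). The combination's median falls short of the sum's for monocyte and macrophage (1.11 against 1.69) and antigen presentation genes (1.53 against 1.79). It lies past the sum's for S phase genes (-0.42 against -0.29). The median interactions of these lists are -0.066, -0.27 and -0.13.

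The medians of 9 other lists follow, the combination's first and the sum second. They were -0.72 against -0.74 for granule genes, 0.084 against 0.29 for myeloid transcription factors, -0.11 against -0.16 for the LSD1 and CoREST list, -0.19 against -0.17 for arginine methyltransferases and -0.29 against -0.37 for chaperones of the endoplasmic reticulum. They were -0.22 against -0.26 for MYC and ribosome biogenesis genes, 0.15 against 0.017 for interferon-stimulated genes, -0.36 against -0.35 for MAPK and STAT5 feedback genes and -0.15 against -0.13 for the BCL2 family. The gap between these medians is not the median interaction, which was 0.0091 for the myeloid transcription factors. PHLDA1, of the feedback list, was the only called gene in these 9 lists by edgeR. Each list held 0 to 4 genes at an unadjusted p below 0.05, next to 10.1% of all genes. DESeq2 called 2 in the feedback list and 0 in the others. The targets themselves showed no called interaction: KDM1A had -0.03 (-0.16 to 0.09), PRMT5 -0.05 (-0.22 to 0.12) and PRMT1 0.00 (-0.16 to 0.17). No interaction was called either for MYC at -0.04 (-0.23 to 0.16), for the p53 target CDKN1A at 0.01 (-0.21 to 0.23) and for GFI1 at -0.06 (-0.14 to 0.03). FCRLA, the gene with the largest GSK-LSD1 rise of those always named, had 69.7 ± 6.01 CPM with GSK-LSD1 and 99.1 ± 7.43 with both (n = 3), and an interaction of 0.72 (-0.23 to 1.66) that rests on under 1 CPM in DMSO and PRT220.

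Markers of other cell types were low or moved with the groups, and their part in the results was not tested. Of 14 erythroid and megakaryocyte markers 7 passed the filter, with a summed level of 1995 to 2086 CPM in DMSO, 1321 to 1485 with PRT220, 1050 to 1070 with GSK-LSD1 and 846 to 864 with both, nearly all of it from the transferrin receptor gene TFRC. Of 14 neuronal genes repressed through REST and CoREST 8 passed, with 12.7 to 16.0 CPM in DMSO, 16.1 to 17.4 with PRT220, 61.4 to 62.6 with GSK-LSD1 and 68.3 to 76.1 with both. Of 15 lymphocyte markers 10 passed and of 10 epithelial and fibroblast markers 6. EdgeR called 0 interactions in each of these 4 lists, with 1 gene each at an unadjusted p below 0.05, and DESeq2 called 0. The 13 mitochondrial transcripts summed to 3705 to 5897 CPM in DMSO, 4022 to 4488 with PRT220, 5245 to 6332 with GSK-LSD1 and 5271 to 6162 with both, with 0 called by edgeR, 0 at an unadjusted p below 0.05 and 0 by DESeq2. Of the monocyte markers, CD163 was at 0 in the DMSO and PRT220 libraries and at 1.18 and 1.2 CPM with GSK-LSD1 and with both.

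MS023 blocks the type I arginine methyltransferases. Its libraries, with or without GSK-LSD1, gave values for the same genes in libraries that the interaction did not use; the labels give neither dose nor time for it. GSK-LSD1 on top of MS023 raised 45 of the 64 raised sub-additive genes and lowered 4, with a median of 0.42, where it called 40.0% of all genes, 20.0% higher and 20.0% lower. It raised all 24 additive raised genes (median 1.11) and lowered all 7 additive lowered ones. Of the 14 lowered sub-additive genes it raised 5 and lowered 7. IGF1 rose from 5.43 ± 0.448 CPM with MS023 to 134 ± 7.52 with MS023 and GSK-LSD1 (n = 3), and KIT had 7.33 ± 0.0785 and 8.19 ± 0.322 CPM. KDM7A, opposed in the PRT220 design, rose from 1.81 ± 0.110 to 19.8 ± 1.87 CPM (n = 3).

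The interaction of MS023 with GSK-LSD1 was called in 0 genes by edgeR (1356 at an unadjusted p below 0.05, lowest adjusted p 0.301). Of the 90 genes with a PRT220 interaction, 33 had an unadjusted p below 0.05 there. Both interactions use the DMSO and GSK-LSD1 libraries. The difference between them, in which those libraries cancel, was called in 34 genes (0.204%), 30 with the PRT220 interaction lower (0.18%) and 4 with it higher (0.024%). Among raised sub-additive genes 21 of 64 were called in it, all lower with PRT220, and 1 of the 14 lowered genes was called, higher with PRT220. The difference still holds the PRT220 and combination libraries by which these genes were classed, so these directions are a description and no independent support. In the comparison of MC4455 with MC4491, which uses 6 further libraries, edgeR called 0 genes, with 780 at an unadjusted p below 0.05, and 16 of the 90 interaction genes were among these.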

How the data were processed

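RNA of 24 MV4-11 libraries was sequenced as unstranded poly(A) libraries per the labels' protocols, so reads of overlapping antisense genes cannot be told apart. The deposited gene table holds estimated counts for 38048 genes; the submitters' processing notes name STAR 2.7.3a and Salmon 1.2.1, the build GRCh38, and DESeq2 1.28.1 under R 4.0.0. Every column matched 1 sample, and 0 of 24 pairs of libraries of 1 group held the same counts within noise. Estimated counts were rounded, filtered with filterByExpr (16640 genes kept), scaled by TMM and fitted with edgeR 4.0.16 in R 4.3.3, with 1 coefficient per group over all 24 libraries, which share 1 estimate of the spread. Genes, p-values and classes are those of this quasi-likelihood fit with Benjamini-Hochberg adjustment over all genes. Standard errors came from the working weights and the posterior quasi-dispersion. The interaction model was also run on simulated counts, drawn independently for each library from the group fits. These counts held neither the RRP9-low split nor correlated libraries, so they cannot test an effect of either. Depth was 34.6 to 61.1 M estimated counts in the 12 libraries, and standard errors include both counting error and the spread between libraries.

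Named genes had a symbol, at least 5 CPM in the highest group and a called interaction with and without a term for the RRP9-low libraries (RRP9 under 5 CPM before scaling). They were the 7 largest of each sub- and super-additive direction, the 5 largest of the opposed and combination-emergent genes in each direction, up to 4 called members of a list, the 6 additive genes with the largest sum in each direction, and 16 genes always named; 1 gene that this rule names is not reported here. Members, lists and rules were chosen with earlier results of these data known. Positions are from GENCODE release 29 on GRCh38. Alternatives were RLE size factors, DESeq2 1.42.0, no filter, the 12 libraries alone, an adjusted p below 0.01, a replicate block, the RRP9 term, other bounds, a linear CPM scale and each library left out. Figures used Python 3.11.15 and matplotlib 3.10.9.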

Additional observations from a re-analysis of the deposited data

Results flagged for a closer look

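The interaction with GSK-LSD1 differed between PRT220 and MS023 in 34 genes, tested as the difference of both interactions with edgeR's quasi-likelihood test. Among named genes, the PRT220 interaction minus the MS023 interaction was 0.57 for RAPGEF2 (adjusted p = 0.011), -1.29 for IGF1 (0.011), -0.96 for KIT (0.00841), -0.62 for CD84 (0.0257), -0.73 for ABCA6 (0.0285) and -0.81 for the additive gene CYBB (0.00841). The count fell to 8 without combination library A, and it was 12 without combination library B or C, 14 without PRT220 C and 17 without PRT220 B. The PRT220 and combination libraries enter both this difference and the interaction by which the first 5 genes were named. MS023 has no stated dose or time in the labels, so the agents are not matched.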

How the results depend on the processing

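All 90 called interactions kept their sign in 20 alternatives, but the count varied. Leaving out 1 library gave 27 to 98 called genes (5 to 26 above 0 and 22 to 72 below), 26 to 83 sub-additive, 0 to 2 super-additive, 1 to 14 opposed, 25 to 37 additive, 8 to 47 in the difference of interactions, 3059 to 4132 for PRT220, 4582 to 5569 for GSK-LSD1 and 6799 to 7740 for the combination. DESeq2 called 198 (67 above and 131 below 0; 163 sub-additive, 6 super-additive, 25 opposed; 139 in the difference), including 88 of the 90. An adjusted p below 0.01 left 32 (4 and 28; 31, 0 and 1; 3 in the difference; 2666 for PRT220). Without the filter there were 54 (39 below 0; 49 sub-additive, 1 super-additive, 4 opposed), and with the 12 libraries alone 53 (8 and 45; 44 sub-additive). RLE size factors left 5 opposed genes of 67 called. The RRP9 term left 1 super-additive gene of 85 called, and DMSO C and combination C left out together, chosen after seeing the data, gave 49 (11 above and 38 below 0; 45 sub-additive, 1 super-additive, 2 opposed; 18 in the difference) and 6557 for the combination. Additive genes were 1 with a narrower bound, 101 with a bound of 2-fold, and 288 with smaller single-agent changes allowed. Among called named genes the sign reversed for IGF1 on the linear CPM scale (72.2). Of those not called, it reversed for CD86 without DMSO C and combination C (-0.23). It also did for MYC without combination A (0.061, in a range of -0.089 to 0.061 over single libraries left out). The cause was not tested for CD86 and MYC. Over 20 alternatives, other named genes without a called interaction crossed 0 by shifts within 1 SE. They were CDKN1A (-0.090 to 0.099), HMGCS1 (-0.022 to 0.17), KDM1A (-0.083 to 0.012), PRMT1 (-0.014 to 0.057) and VCAN (-0.041 to 0.060).

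The replicate letters do not pair the libraries over all 4 groups: same-letter deviations correlated from -0.44 to 0.60 (median -0.039), with 7 of 18 pairs above 0.1. Between DMSO and the combination, however, all 3 same-letter pairs correlated (0.433, 0.54 and 0.595), and library C of both groups, RRP9-low, correlated negatively with A and B of the other (-0.495 to -0.44). For that comparison the block gave 7530 called genes against 7735. With the replicate block 61 genes were called, 60 of them among the 90, and 53 were sub-additive, 1 super-additive and 7 opposed; with the block and the RRP9 term 55 were called (11 and 44; 48 sub-additive, 0 super-additive). With 3 libraries a group, the interaction's error limits calls to larger sizes than those of a single comparison.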
